A study of Homo sapiens with 16 samples.

Results

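The RUNX, CBFB and ETO family genes are described here across an induction time course of the AML1-ETO fusion protein. The cells were U937, an established human leukaemia line of monocytic type. Members were all probe sets of the array whose platform symbol was, or included among several, RUNX1T1, RUNX1, RUNX2, RUNX3, CBFB, CBFA2T2 or CBFA2T3. These 7 genes, of 9141 gene symbols on the array, had 17 of its 12626 probe sets. Of the 17, 12 passed the filter on low values and were tested, among 7824 tested probe sets in all, and every one of the 7 genes kept at least 1. All 16 arrays came from cells that carried an AML1-ETO construct driven by a tetracycline promoter, so the controls carried it too. The 8 groups had 2 replicates each: uninduced controls sampled at 0, 24, 48 and 72 h, and cells sampled 12, 24, 48 and 72 h into induction. Controls at 12 h, which the labels also mention, are not among the 16 arrays. The 12 h induced arrays were set against the 0 h control, where induction and time in culture cannot be told apart. No label says that replicates were separate cultures, so p-values reflect only how far these samples differ, and that spread may be technical. The construct acts in 1 leukaemia line, and no label says whether the cells were a single clone.

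RUNX proteins (RUNX1, RUNX2, RUNX3) bind DNA through a runt domain, and CBFB, which does not itself bind DNA, pairs with that domain and strengthens the contact. RUNX1 with CBFB is needed for the formation of blood stem cells and for myeloid and megakaryocytic maturation. The ETO family (RUNX1T1, CBFA2T2, CBFA2T3) consists of corepressors that recruit histone deacetylase complexes. AML1-ETO, the product of a recurrent translocation of acute myeloid leukaemia, joins the runt domain of RUNX1 to nearly all of RUNX1T1, so its transcript holds parts of both genes.

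The probe sets were read as array intensity, in the arbitrary units that the authors deposited, in which values below 0 occur. For tests, values under 135.61 were set to this floor and log2 was taken, and each fold change is taken from the fitted log2 means. A fold reads "at least" where only the lower side of the comparison had arrays at the floor. Differences are induced minus control at the same hour, with 2 arrays a side, or their mean over 24, 48 and 72 h (the average effect, 6 arrays a side). P-values came from limma, two-sided, with Benjamini-Hochberg adjustment over all 7824 tested probe sets, and a call is an adjusted p under 0.05. Intensities of different probe sets were not set against each other, because each has its own response.

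RUNX1T1 signal appeared with induction on 1 probe set, CBFB, RUNX3 and CBFA2T3 fell at 48 and 72 h, and no probe set of RUNX1, RUNX2 or CBFA2T2 was called. In the average effect 4 of the 12 tested member probe sets were called, 1 higher and 3 lower. Among all tested probe sets 31.9% were called in this comparison, 18.5% higher and 13.4% lower. At 24 h 0 of 12 were called by limma, with 2 at an unadjusted p under 0.05, where 0% of all tested probe sets were called. Over all probe sets 397 had such an unadjusted p at 24 h, with a smallest adjusted p of 0.0515, and 4 were called without the filter, 2 without the mean-variance trend and 84 against the 0 h control. At 48 h the same 4 genes were called, against 19.2% of all probe sets (10.5% higher, 8.68% lower). At 72 h they were called again, against 30.0% (16.1% higher, 13.9% lower). The shares of members called, 4 of 12 each time, were near the background in the average effect and at 72 h and above it at 48 h. Each time they included RUNX1T1 35641_g_at, the 1 member called higher, which passed the filter only through induced arrays. The members were too few and too closely chosen to read more from these counts. At 12 h, set against the 0 h control, 0 of 12 were called against 3.28% of all, with 1 member at an unadjusted p under 0.05.

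**Figure D1:**
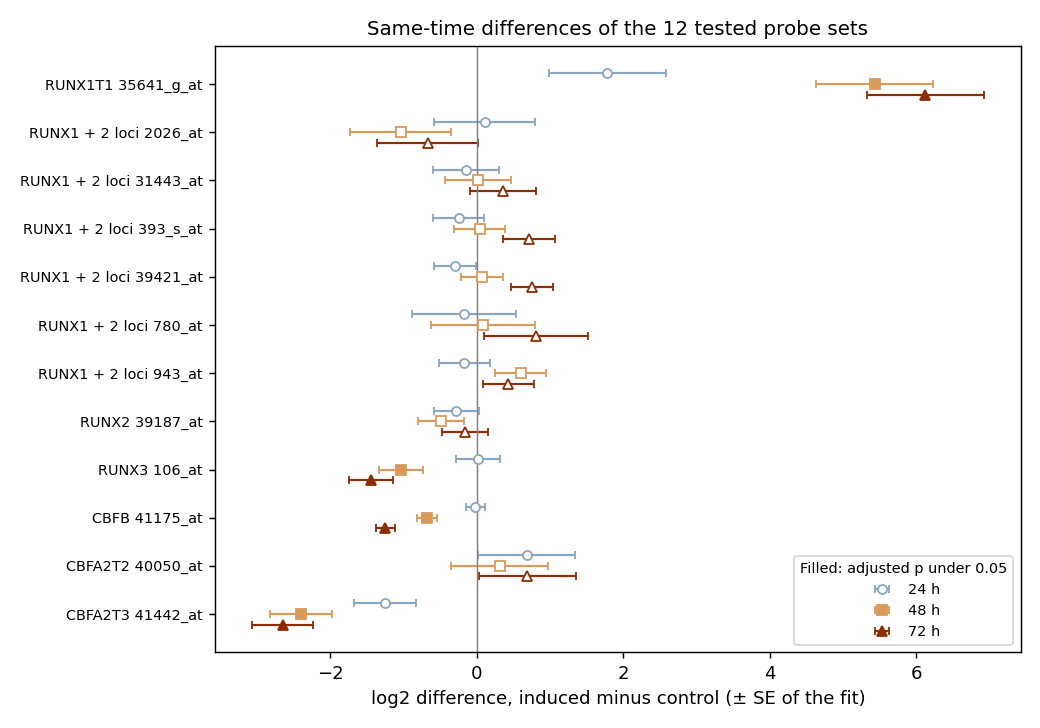
The log2 difference between induced and control cells (horizontal axis, ± SE of the fit) is plotted for each of the 12 tested probe sets at 24, 48 and 72 h, with filled symbols for adjusted p under 0.05. RUNX1T1 lies to the right at 5.43 and 6.12 at 48 and 72 h, CBFB, RUNX3 and CBFA2T3 lie to the left at both times, and the 6 RUNX1 probe sets are spread around 0 with open symbols.

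The runt domain, which AML1-ETO keeps, binds the RUNX motif TGTGGT. Whether AML1-ETO binds the promoters of these genes was not tested. The motif was searched on both strands (TGTGGT and its reverse complement ACCACA, the 1 motif searched) in RefSeq windows of build GRCh38.p14, from 250 bases before to 50 after a start site. The search covered 5 of the 7 genes, with 7 windows in all, and 2 of the 7 windows held the motif. RUNX1T1 was left out of the search, and no window was available for CBFB. Among all 35116 windows 13.1% held it at least 1 time, 1.31% at least 2 times and 0.014% at least 4 times. The distal RUNX3 window held 2 matches, at -131 and -123 from the start site, and the distal RUNX2 window held 4, at -191, -87, 17 and 25. The second RUNX3 window and the CBFA2T3 window held none, nor did the windows of RUNX1 and CBFA2T2 and the second of RUNX2. A match describes letters and is not a binding site, no match says only that these letters are not in the window, and promoter use was not measured. The windows of RUNX3 and CBFA2T3, which fell, and of RUNX2 as the richest in matches, are shown 5′ to 3′ on the gene's strand, with matches in capitals.
RUNX3 distal, chr1:24964961-24965260, minus strand: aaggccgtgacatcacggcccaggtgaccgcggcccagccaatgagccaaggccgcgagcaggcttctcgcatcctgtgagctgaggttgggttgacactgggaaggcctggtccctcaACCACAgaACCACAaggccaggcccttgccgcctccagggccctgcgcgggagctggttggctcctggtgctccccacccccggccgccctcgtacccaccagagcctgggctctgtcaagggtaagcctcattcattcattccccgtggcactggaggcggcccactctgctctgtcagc
RUNX3 proximal, chr1:24930227-24930526, minus strand: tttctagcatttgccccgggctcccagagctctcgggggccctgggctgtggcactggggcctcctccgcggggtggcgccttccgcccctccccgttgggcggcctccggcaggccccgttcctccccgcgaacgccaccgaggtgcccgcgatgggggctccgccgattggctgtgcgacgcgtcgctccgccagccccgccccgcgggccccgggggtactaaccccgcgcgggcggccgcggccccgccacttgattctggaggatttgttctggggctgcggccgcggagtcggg
CBFA2T3, chr16:88941301-88941600, minus strand: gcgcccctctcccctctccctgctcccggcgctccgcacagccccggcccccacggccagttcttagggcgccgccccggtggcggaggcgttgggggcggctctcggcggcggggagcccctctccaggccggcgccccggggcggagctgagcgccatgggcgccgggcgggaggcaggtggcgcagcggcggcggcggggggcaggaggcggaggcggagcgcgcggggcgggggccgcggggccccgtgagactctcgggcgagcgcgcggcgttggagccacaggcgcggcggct
RUNX2 distal, chr6:45328080-45328379, plus strand: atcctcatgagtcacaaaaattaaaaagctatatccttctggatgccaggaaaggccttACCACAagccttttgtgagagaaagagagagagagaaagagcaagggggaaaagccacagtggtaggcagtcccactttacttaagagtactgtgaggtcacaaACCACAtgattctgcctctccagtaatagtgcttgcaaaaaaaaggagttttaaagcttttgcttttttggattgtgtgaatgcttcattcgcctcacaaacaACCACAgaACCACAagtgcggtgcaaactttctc

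RUNX1T1, the ETO part of the fusion, was represented by 4 probe sets, and only 35641_g_at registered the induction. Its 8 control arrays read -220 and -223 at 0 h, 8.3 and -45.9 at 24 h, -92.3 and 91.4 at 48 h, and -399 and -5.1 at 72 h. All of these values were below the floor, as were the 12 h induced arrays at -116 and 86.1. At 24 h of induction replicate 1 read 1592 and replicate 2 read -47.5. At 48 h the arrays read 8650 and 3974, and at 72 h 10603 and 8355. The induced arrays therefore lay above all controls at 48 and 72 h, whereas the 24 h pair disagreed.

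The probe set passed the filter only through induced arrays, the 5 that exceeded 292.74, so its tests follow a selection for a difference. The signal of 35641_g_at was at least 43.2-fold higher at 48 h (log2 difference 5.43, SE 0.80, adjusted p 0.000391, or 0.00655 with no filter). At 72 h it was at least 69.4-fold higher (log2 difference 6.12, SE 0.80, adjusted p 7.01e-05, or 0.00184 with no filter). The 24 h difference of 1.78 (SE 0.80) had an unadjusted p of 0.0436 and an adjusted p of 0.971 and is no bound, since the array of replicate 2 lay at the floor. The average effect of 4.44 (SE 0.46, adjusted p 9.71e-06, or 0.000502 with no filter) is no bound either, with all 6 controls and 1 induced array at the floor. It was 3.52 with the floor at the median of all values and 6.38 with a floor of 20. An F test of whether the effect differed between 24, 48 and 72 h gave an adjusted p of 0.0410. That call held in 4 of 10 other processing settings and in 2 of 12 fits that each left out 1 array.

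The other 3 RUNX1T1 probe sets did not pass the filter. The array values of 35639_at ranged from -99.9 to 100.6 and those of 35640_at from -455 to 16.6, at the floor on all 16 arrays. The probe set 35638_at ranged from -158 to 352 and exceeded the floor on 5 arrays, of which the highest was a control at 72 h. Of the other 4, 1 was a 48 h control and 3 were induced arrays. At 48 h it read -158 and 164 in controls and 207 and 207 with induction, and at 72 h 352 and 132 in controls and 155 and -52.0 with induction. When the filter was dropped, these 3 had adjusted p between 0.333 and 1.00 in the average, 24, 48 and 72 h effects. Where the probes of each set lie in the transcript was not analysed here, so whether the silent sets target sequence carried by the construct was not tested.

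**Figure D2:**
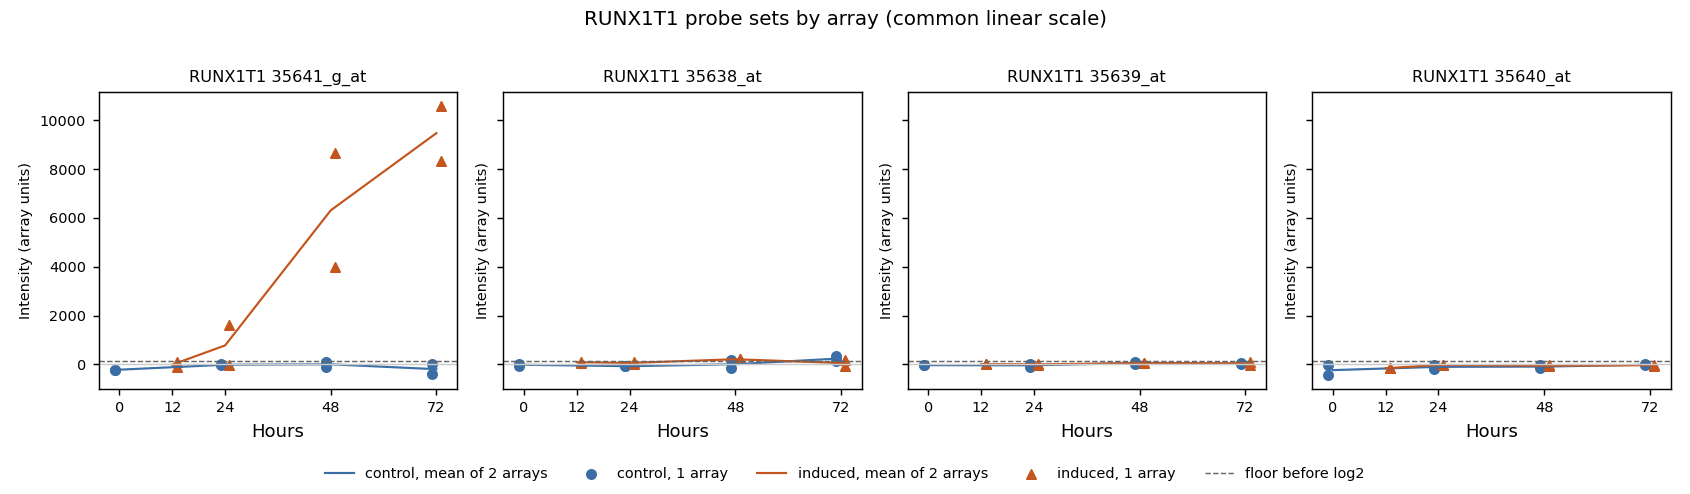
Intensity (vertical axis, array units, linear) is plotted against hours for the 4 RUNX1T1 probe sets, with 1 point per array, lines through the means of 2 arrays, and the floor dashed. In 35641_g_at the induced arrays climb to 10603 and 8355 at 72 h while the controls stay below the floor, and the other panels stay near 0.

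RUNX1, which supplies the runt domain of the fusion, was covered by 6 probe sets. Each also carries the symbols of 2 loci that RefSeq lists as long non-coding RNAs (LOC101928269 and LOC100506403), so their signal cannot be assigned to RUNX1 alone. Their probe positions were not analysed here either, so which of them can also read the RUNX1 part of the fusion transcript was not tested. None of the 6 was called in any comparison. For 39421_at the controls read 3319 and 2434 at 0 h, 1517 and 2200 at 24 h, 1697 and 2091 at 48 h, and 2219 and 2739 at 72 h. The induced arrays read 1685 and 2664 at 12 h, 1459 and 1505 at 24 h, 1848 and 2118 at 48 h, and 5376 and 3219 at 72 h. At 72 h both induced arrays lay above both controls, and replicate 1 was the highest array of the series for this probe set.

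The 72 h difference of 39421_at was 0.75 on the log2 scale (SE 0.29, 95% interval 0.12 to 1.39, unadjusted p 0.0234), with an adjusted p of 0.0696. It was called after quantile normalization (adjusted p 0.0447) and in the fit without induced replicate 2 at 72 h (log2 difference 1.12, adjusted p 0.0292). The probe set 943_at read 2669 and 2797 in the 72 h controls and 4522 and 3007 in the 72 h induced arrays, a log2 difference of 0.43 (SE 0.35, 95% interval -0.31 to 1.18, adjusted p 0.379). For 393_s_at the 72 h controls read 961 and 1604 and the induced arrays 2598 and 1582, so the groups overlapped (log2 difference 0.71, SE 0.35, adjusted p 0.150). In 39421_at, 943_at and 393_s_at, replicate 1 of the induced 72 h arrays read above its replicate 2.

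The remaining 3 RUNX1 probe sets varied widely between replicates. In 780_at the 0 h controls read 663 and 24.0. Its 72 h induced arrays (480 and 642) lay above the 72 h controls (255 and 396), and the difference was 0.81 (SE 0.71, adjusted p 0.425). In 31443_at the 72 h induced arrays read 924 and 1959, and the difference was 0.36 (SE 0.45, adjusted p 0.587). In 2026_at the values ran from -66.8 to 659, and the 72 h difference was -0.67 (SE 0.69, adjusted p 0.499). The sign of the last 2 differences changed when 1 induced 72 h array was left out, to 0.07 for 2026_at without replicate 1 and -0.19 for 31443_at without replicate 2.

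Across the 6 RUNX1 probe sets the median log2 difference was -0.17 at 24 h, 0.05 at 48 h and 0.57 at 72 h. Over all tested probe sets the medians were 0.04, 0.09 and 0.18. At 72 h 5 of the 6 lay above 0, over a range of -0.67 to 0.81. These sets share their target genes and are not independent measurements of the induction. Set against the 0 h control in place of the same-time control, the RUNX1 medians were -0.76, -0.36 and 0.42, so the direction at 48 h depended on which control was used. Among the controls themselves, 943_at had a mean of 2769 at 0 h and of 1399 at 48 h, a difference that did not pass adjustment (log2 difference -1.02, adjusted p 0.434). For 393_s_at the 12 h induced arrays (743 and 870) lay below the 0 h controls (1675 and 1350), with a log2 difference of -0.90 (SE 0.35, unadjusted p 0.0227, adjusted p 0.169). It was the 1 member with an unadjusted p under 0.05 in that comparison.

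**Figure D3:**
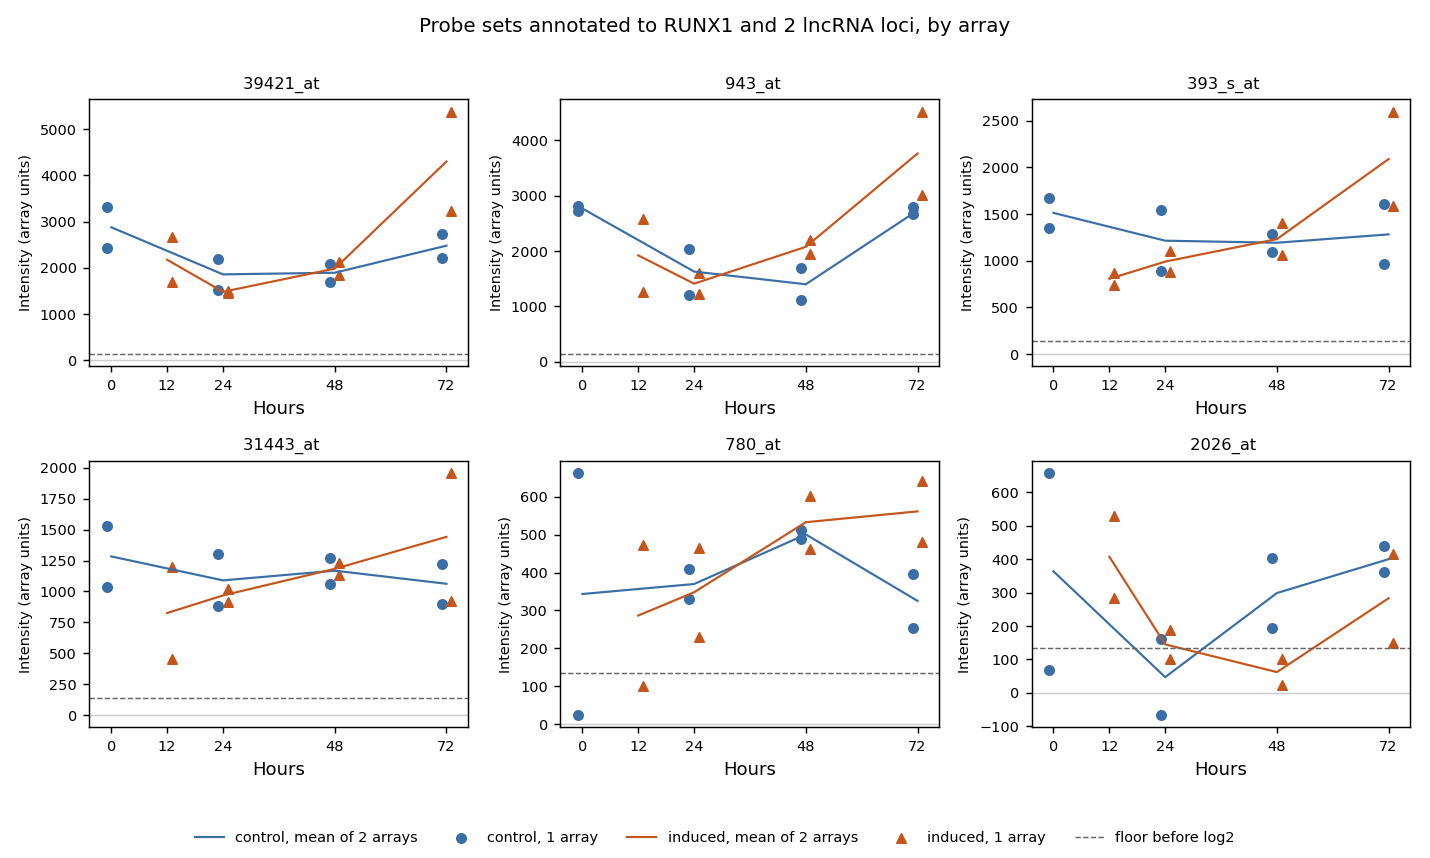
Intensity (vertical axes, array units, each panel with its own linear scale) is plotted against hours for the 6 probe sets annotated to RUNX1 and the 2 non-coding loci, with 1 point per array and lines through the means of 2 arrays. At 72 h the induced arrays of 39421_at (5376 and 3219) lie above the controls (2219 and 2739), as do those of 943_at and 780_at above theirs. The 72 h arrays of 31443_at, 393_s_at and 2026_at overlap between groups.

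CBFB, the non-DNA-binding partner of the RUNX proteins, was called lower at 48 and 72 h. The controls of its single probe set, 41175_at, read 10700 and 9756 at 0 h, 11261 and 13141 at 24 h, 11117 and 12202 at 48 h, and 9681 and 10165 at 72 h. Induced arrays read 9348 and 9593 at 12 h, 11738 and 12298 at 24 h, 7338 and 7183 at 48 h, and 4502 and 3872 at 72 h. The induced 48 h and 72 h arrays lay below all 8 controls, and the 72 h pair lay below the 48 h pair.

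At 48 h the mean CBFB intensity was 7260 ± 109 (SD, n = 2) with induction against 11660 ± 767 (SD, n = 2) without. This was a 1.60-fold fall (log2 difference -0.68, SE 0.13, adjusted p 0.00257). At 72 h the means were 4187 ± 446 (SD, n = 2) and 9923 ± 342 (SD, n = 2), a 2.38-fold fall (log2 difference -1.25, SE 0.13, adjusted p 1.14e-05). At 24 h the groups overlapped and the difference was -0.02 (SE 0.13, adjusted p 1.00), with a 95% interval of -0.30 to 0.26. The average effect was -0.65 (SE 0.08, adjusted p 2.48e-05). The F test of the difference between the 3 times gave an adjusted p of 0.00245, and its call held in all 10 other settings and all 12 fits without 1 array. In order of mean level the groups were control 24 h, induced 24 h, control 48 h, control 0 h, control 72 h, induced 12 h, induced 48 h and induced 72 h. The arrays of the first 3 groups overlapped, and so did those of control 0 h and control 72 h.

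RUNX3, the RUNX protein best known from T cells and dendritic cells, was called lower at 48 and 72 h. The controls of 106_at read 1275 and 1236 at 0 h, 1150 and 1576 at 24 h, 1456 and 1315 at 48 h, and 1040 and 1469 at 72 h. Induced arrays read 1199 and 1274 at 12 h, 1054 and 1772 at 24 h, 608 and 746 at 48 h, and 487 and 422 at 72 h. All 4 induced arrays at 48 and 72 h lay below all 8 controls, and the 12 h arrays lay among them. The 24 h pair reached from near the lowest control to above the highest.

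The RUNX3 fall was 2.73-fold at 72 h, from 1255 ± 303 (SD, n = 2) in controls to 455 ± 46.0 (SD, n = 2) in induced cells (log2 difference -1.45, SE 0.30, adjusted p 0.00265). At 48 h it was 2.06-fold, from 1385 ± 99.6 to 677 ± 97.7 (SD, n = 2 each, log2 difference -1.04, SE 0.30, adjusted p 0.0293). The 48 h call was lost when any of its 4 arrays was left out (adjusted p 0.0631 to 0.155), when the 0 h control was used (0.0630) and when only the groups compared were fitted (0.0662). The average effect was -0.82 (SE 0.18, adjusted p 0.00269), and -0.75 (adjusted p 0.0541) against the 0 h control. A difference between the 3 times was not called (F test, adjusted p 0.0888), although it was after quantile normalization (0.0277) and after median centring (0.0320).

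RUNX2, the RUNX protein of bone formation, had 3 probe sets, of which 39187_at was tested. Its controls ranged from 952 to 1766 with a median of 1075, and its induced arrays from 681 to 1550 with a median of 874. At 24 and 48 h the induced arrays (922 and 751, then 681 and 825) lay below the same-time controls (1077 and 952, then 1074 and 1037), and at 72 h the groups overlapped. The average effect was -0.31 (SE 0.18, 95% interval -0.70 to 0.08, adjusted p 0.218). The other 2 RUNX2 probe sets were not tested. All 16 arrays of 34501_at lay between -990 and -363, and 34502_g_at exceeded the floor on 2 arrays, both controls.

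CBFA2T3 (ETO2, MTG16), the ETO family member known as a corepressor in erythroid and megakaryocytic progenitors, went from above to below the floor. The controls of 41442_at read 424 and 286 at 0 h, 287 and 476 at 24 h, 541 and 942 at 48 h, and 885 and 813 at 72 h. At 12 h of induction it still read 511 and 461. From 24 h on the induced arrays read -61.4 and 177, then -205 and -158 at 48 h, and -194 and -637 at 72 h. From 24 h on, all 6 induced arrays lay below all 8 controls, and 5 of them lay at the floor. The 8 arrays that carried it through the filter were 6 controls and the 12 h induced pair.

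The CBFA2T3 fall was at least 5.26-fold at 48 h (log2 difference -2.40, SE 0.42, adjusted p 0.00136) and at least 6.26-fold at 72 h (log2 difference -2.65, SE 0.42, adjusted p 0.000319). With no filter the adjusted p were 0.00320 and 0.000988. The 24 h difference of -1.25, at least 2.39-fold, had an unadjusted p of 0.00974 and an adjusted p of 0.798. The average effect was -2.10, at least 4.28-fold (SE 0.24, adjusted p 2.28e-05). The controls also moved: their mean was 355 ± 97.1 at 0 h and 849 ± 51.1 at 72 h (SD, n = 2 each, log2 difference 1.28, unadjusted p 0.00847, adjusted p 0.569). Against the 0 h control the differences were smaller but still called, -1.36 at 48 h (adjusted p 0.0406) and -1.36 at 72 h (adjusted p 0.0256). With the 2 induced arrays at the floor at each hour, these values are bounds and equal by construction. The bounds of 5.26-fold and 6.26-fold likewise differ only through their controls. In the same setting the average effect was -1.30 (adjusted p 0.0179). No member was called in any comparison of a later control with the 0 h control, where 0.498% (24 h), 0.0128% (48 h) and 0.0383% (72 h) of all probe sets were.

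CBFA2T2 (MTGR1), the remaining ETO family member, was not called at any time. The controls of 40050_at read 1055 and 337 at 0 h, 286 and 869 at 24 h, 732 and 624 at 48 h, and 471 and 1127 at 72 h. Induced arrays read 350 and 631 at 12 h, 756 and 847 at 24 h, 521 and 1344 at 48 h, and 1146 and 1211 at 72 h. The replicates of a group differed widely at most times, and at 72 h the induced arrays lay above both controls, 1 of them narrowly. The average effect was 0.56 (SE 0.38, 95% interval -0.26 to 1.38, adjusted p 0.291), an interval that holds both no change and a rise.

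In the F test of the difference between the 3 same-time effects, 2 of 12 members (RUNX1T1 and CBFB) were called, against 10.9% of all probe sets. Of the members called lower at both late times, CBFB and RUNX3 differed from controls by -0.02 and 0.02 at 24 h and CBFA2T3 by -1.25, none of them called. Differences between members were not tested.

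**Figure D4:**
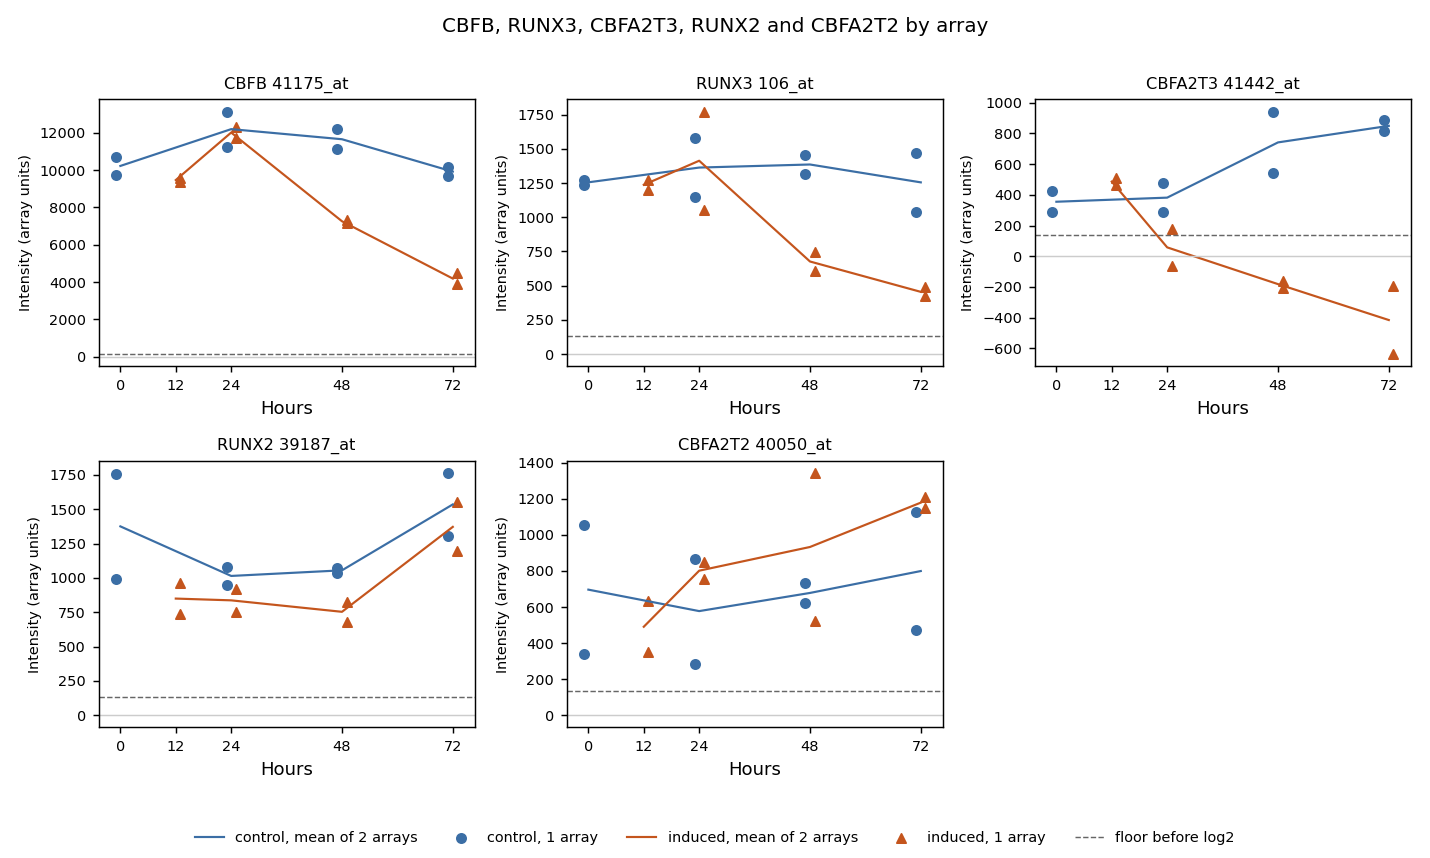
Intensity (vertical axes, array units, each panel with its own linear scale) is plotted against hours for CBFB, RUNX3, CBFA2T3, RUNX2 and CBFA2T2, with 1 point per array, lines through the means of 2 arrays, and the floor dashed. CBFB falls to 4502 and 3872 and RUNX3 to 487 and 422 in the induced 72 h arrays, CBFA2T3 drops below the floor, and the groups overlap in RUNX2 and CBFA2T2 at some times.

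Cofactors of RUNX and ETO proteins formed a list of 40 genes, of which 35 were on the array as single-symbol probe sets and 29 were tested. In the average effect 11 were called higher and 4 lower, with a median log2 difference of 0.43 beside 0.10 over all tested probe sets. Of all tested probe sets, 18.5% were called higher and 13.4% lower. At 24 h 0 were called, at 48 h 8 higher and 1 lower (10.5% and 8.68% of all), and at 72 h 10 higher and 2 lower (16.1% and 13.9% of all). For genes with several tested probe sets, 8 in this list, the set with the largest test statistic in each comparison was taken, which favours calls. With the set of highest mean intensity, an alternative chosen after seeing the data, 10 were called higher and 3 lower in the average effect (median 0.35), 7 and 1 at 48 h, and 8 and 2 at 72 h. ZBTB7A, a transcriptional repressor, was called at 3.51-fold higher on 1 probe set (log2 difference 1.81, SE 0.34, adjusted p 0.000977), whereas its other tested set, of higher mean intensity, was at 0.06 (adjusted p 0.901). KAT6B, a histone acetyltransferase, rose 2.01-fold (adjusted p 0.000268), YES1, a Src-family kinase, 2.35-fold (0.000682), and KMT2A, a histone methyltransferase, 2.01-fold (0.00613). ATXN1, which binds corepressors, rose at least 2.46-fold (0.0179). The acetyltransferase EP300 was called at 1.49 on the log2 scale on 1 set (adjusted p 6.94e-05), with 5 of 6 control arrays and 1 induced array at the floor. Its other tested set, of higher mean intensity, was at 1.57 (adjusted p 0.000152). The ETS factor ELF4 fell 3.21-fold (log2 difference -1.68, SE 0.22, adjusted p 7.58e-05) and 8.85-fold at 72 h. TCF3, an E protein that ETO binds, was called 1.27-fold lower on 1 set (adjusted p 0.0272), while its other 2 sets were at -0.29 (0.0557) and -0.55 (0.505). The deacetylase HDAC2 fell 1.21-fold (adjusted p 0.0142). In contrast, HDAC1 was called higher on its 2 tested sets (log2 differences 0.58 and 0.74, adjusted p 8.21e-05 and 0.000800), and HDAC3 was not called (0.548). The corepressor TLE2 was called at -1.14 (adjusted p 0.0324), with 4 induced arrays and 1 control array at the floor.

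Genes known to be bound or driven by RUNX proteins formed a second list of 30, of which 26 were on the array and 16 were tested. In the average effect 2 were called higher and 6 lower, with a median of -0.19, beside 18.5% and 13.4% of all tested probe sets. At 24 h 0 were called, at 48 h 1 higher and 5 lower (median -0.38, 10.5% and 8.68% of all), and at 72 h 2 higher and 6 lower (median 0.09, 16.1% and 13.9% of all). The counts were the same with the set of highest mean intensity per gene, with a median of -0.23 at 48 h. The 72 h median lay above 0, although more genes were called lower than higher. Over all tested probe sets the median was 0.10 in the average effect, 0.09 at 48 h and 0.18 at 72 h. Cathepsin G (CTSG), a granule protease, fell 13.6-fold at 72 h on 1 probe set (log2 difference -3.77, adjusted p 2.42e-07). Its other tested set, of lower mean intensity, was at -2.14 (adjusted p 0.000113). The chemokine receptor CXCR4 fell 8.12-fold at 72 h (adjusted p 2.10e-07). The myeloid transcription factors SPI1 and CEBPA fell 10.7-fold (adjusted p 1.02e-05) and 6.19-fold (2.26e-06) at 72 h, and neutrophil elastase (ELANE) fell 2.53-fold (0.00104). The transcription factor NFE2 fell at least 3.79-fold at 72 h (adjusted p 0.0134). CDKN1A, the cell cycle inhibitor p21, rose at least 26.1-fold at 72 h (adjusted p 7.35e-07). All 6 same-time control arrays and the 2 induced 24 h arrays of CDKN1A lay at the floor. Among the 24, 48 and 72 h arrays, only induced ones could carry it through the filter, so its tests may follow a selection for a difference. CD4 rose 2.25-fold at 72 h (adjusted p 0.0137) on 1 probe set. The other 2 CD4 sets were at 1.29 (adjusted p 0.0154) and 0.01 (1.00) at 72 h on the log2 scale, and the last of these was at -0.26 (0.512) in the average effect. Both lists were drawn up with earlier results of these data known and are described by their counts and medians only.

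The profiles most like RUNX1T1 35641_g_at over the 16 arrays, by Pearson correlation of floored log2 values, were those of EVI2B (0.979), ATP6V1D (0.972), RABGAP1 (0.963), HDAC1 (0.962) and PPP2CB (0.962). The membrane protein gene EVI2B ranged from -233 to 56.0 in controls and from 2958 to 3788 in the induced 48 and 72 h arrays. HDAC1, a deacetylase of ETO corepressor complexes, ranged from 6959 to 8255 in controls and from 12510 to 14060 in those induced arrays. The profiles most like CBFB were those of RFC3 (0.979), DDX10 (0.965), SLC7A1 (0.965), TXNL4A (0.964) and BRCA1 (0.961). The replication factor gene RFC3 ranged from 1204 to 2005 in controls and from 263 to 833 in the induced 48 and 72 h arrays. These correlations describe likeness over arrays that share groups and hours, and carry no test. RUNX1T1 35641_g_at was tied at the floor on 11 of the 16 arrays, and the EVI2B controls also lay below the floor. The RUNX1T1 correlations therefore rest largely on the split between those tied arrays and the 5 induced arrays above the floor.

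Array medians ran from 220.3 to 337.5, and the mean over all values of the 16 arrays was 1370.9. Replicates correlated at 0.912 to 0.955 over tested probe sets, and in no group did the 2 replicates hold identical values. Of 13 myeloid and monocytic marker genes on the array, 11 exceeded the median of all values (292.74) on at least 2 arrays and 6 did so on all 16, among them AZU1, LYZ, ITGB2 and CEBPA. MPO exceeded that median on 2 arrays and CD68 on 4, and CSF1R and ITGAM lay at the floor on all arrays. Of the markers of other cell types, 3 of 4 for T cells, 1 of 4 for B cells, 2 of 3 for erythroid cells, 1 of 4 for megakaryocytes and 4 of 7 for epithelium and fibroblasts exceeded that median on at least 2 arrays. In the same order, 0, 0, 2, 1 and 2 of these markers did so on all 16 arrays. Their part in the results was not tested. In these bulk samples fewer cells of a kind and less RNA per cell cannot be told apart.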

How the data were processed

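Total RNA extracted with TRIzol was hybridised to Affymetrix U95Av2 arrays, per the labels' protocols. The authors deposited 1 linear array intensity per probe set and array, with a scale factor for each array in the labels, and 25.8% of the values were below 0. The sources used here do not name the software that summarised the probes. No value column lay outside the 16 samples (0 others).

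The members and both gene lists were chosen with earlier results of these data known. Symbols came from the platform annotation, where 10961 probe sets had 1 symbol, 546 several and 1119 none. All 17 member probe sets are reported. From each list up to 6 genes per direction called in the average effect are named, from single-symbol probe sets with 1 per gene, the one with the largest absolute moderated t in each comparison, and 5 genes are named for likeness. HDAC1 and HDAC3 are named in addition, next to HDAC2. Promoter windows are those of RefSeq (GRCh38.p14).

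Values under the 40th percentile (135.61) were set to it, and log2 was taken without more scaling. Tests covered probe sets above the median (292.74) on at least 2 arrays, and 67 control probe sets were left out. The model, in limma 3.58.1 under R 4.3.3, gave each of the 8 groups its own mean (16 arrays, eBayes with a mean-variance trend, 8 residual degrees of freedom, a median of 5.19 from the prior). The step was tested on simulated data. With 2 arrays a group, their number limits the precision. Alternatives were the floor, scaling, filter, trend, replicate block, 0 h control, late times only, only the groups compared, and leaving out each array.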

Additional observations from a re-analysis of the deposited data

Results flagged for a closer look

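The induced-minus-control difference of RUNX1T1 35641_g_at differed between 24, 48 and 72 h (limma F test, adjusted p 0.0410), with fitted log2 differences of 1.78, 5.43 and 6.12. The 24 h arrays read 1592 and -47.5, and the call was lost in 10 of 12 fits without 1 array and in 6 of 10 other settings.

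The difference of CBFB 41175_at also differed between the 3 times (limma F test, adjusted p 0.00245), with fitted log2 differences of -0.02, -0.68 and -1.25.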

How the results depend on the processing

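The 4 member calls of the average, 48 h and 72 h effects stayed within 3 to 5 under every alternative tried, and the counts at 24 h, at 12 h and among controls stayed at 0. Under the stricter filter CBFA2T3 was not tested. The number of members called for a difference between the 3 times, 2, was 1 with the floor fixed at 20, with no floor (inverse hyperbolic sine), without the filter, without the trend and with only the groups compared, and 1 to 2 in the fits without 1 array. It was 3 with quantile normalization, and 2 with median centring, where RUNX3 (adjusted p 0.0320) took the place of RUNX1T1 (0.0512). The RUNX3 difference at 24 h (0.02) became -0.02 with quantile normalization and -0.06 with median centring, and ran from -0.35 to 0.40 without 1 array. That of CBFB (-0.02) became 0.02 after quantile normalization and 0.23 against the 0 h control, and ran from -0.13 to 0.09 without 1 array. At 72 h, RUNX1 2026_at ran from -1.41 to 0.07 and 31443_at from -0.19 to 0.90 without 1 array. The cause of these changes was not tested. A fit without 1 array leaves 1 array in its group, which is assumed to vary like the other groups.

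With the replicate number as a block, 4 members were called in the average effect, 0 at 24 h, 4 at 48 h and 4 at 72 h, as without it, and 2616 of all probe sets in the average effect in place of 2499. The numbers were not taken as pairing the samples: in 28 pairs of groups the deviations of same-numbered arrays correlated at -0.152 to 0.250, above 0.1 in 7. Signal limits what can be said of 5 member probe sets that did not pass the filter and of values at the floor, which have no order.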
